A study of Mus musculus with 5 samples.

Results

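Among the islet droplets of 5 NOD.SCID mice, 691 held RNA of both insulin and somatostatin, the hormones of the beta and the delta cell. They were chosen by their counts of unique molecular identifiers (UMIs, each standing for 1 captured RNA molecule): Ins1 and Ins2 together took at least 20% and Sst at least 1% of all UMIs of the droplet, while the glucagon gene Gcg and the pancreatic polypeptide gene Ppy each stayed under 2%. They were 3.04% of the 22758 barcodes kept (a floor of 1000 UMIs and 500 genes, and no more than 15% of UMIs from the mitochondrial genome), out of 26474 barcodes in all. Another 81 droplets passed both hormone gates but held at least 2% Gcg or Ppy and were left out.

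HC mice were fed a diet with 20% hydrolyzed casein (HC), and chow mice a chow diet. All 5 mice carried the scid background, in which mature T and B cells are lacking, and each mouse gave 1 library of hand-picked, trypsin-dissociated islet cells. HC mouse 1 was 7 weeks old and HC mouse 2 was 9 weeks old, while chow mouse 1 was 8 weeks old and chow mice 2 and 3 were 10 weeks old. HC mouse 2 is chow-fed by its title but HC by its diet label, which was followed. The names of the libraries of HC mouse 1 and chow mouse 1 begin with FUN and those of the other mice with SKY, and the labels do not say what this prefix stands for. The libraries held 28722244 to 39624978 UMIs, with 3656 to 5122 kept barcodes each. Any pair of libraries shared 3 to 10 kept barcodes, and 0 or 1 barcode among the droplets with both hormones.

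Beta cells make insulin and delta cells make somatostatin, which acts back on beta and alpha cells through receptors coupled to inhibitory G proteins. In the mature mouse islet each endocrine cell mostly makes 1 hormone, while endocrine cells arise from progenitors that pass through a Neurog3 stage. In a droplet assay the barcode marks the droplet and not the cell, so the counts give the RNA of whatever entered it, and the number of cells in a droplet is not recorded. Reference classes were 11310 insulin-only droplets (the same insulin gate with Sst under 1%) and 2112 somatostatin-only droplets (Sst at least 10%, insulin under 5%), both also with Gcg and Ppy under 2%.

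The genes that define the gate lie on different chromosomes of GRCm38: Ins1 on chromosome 19 (52264297 to 52265476), Ins2 on chromosome 7 (142678656 to 142743381) and Sst on chromosome 16 (23889573 to 23890958). The 250 bases before the RefSeq start of Sst (GRCm38.p6, chr16:23890845-23891094, minus strand) and of Ins1 (chr19:52264047-52264296, plus strand) are shown because both genes' transcripts are counted in each of these droplets. Capitals mark TAAT on either strand (ATTA on the other), the core bound by homeodomain factors such as PDX1, and the palindrome TGACGTCA, the cyclic AMP response element first studied in the somatostatin gene. The 2 motifs do not overlap.
Sst: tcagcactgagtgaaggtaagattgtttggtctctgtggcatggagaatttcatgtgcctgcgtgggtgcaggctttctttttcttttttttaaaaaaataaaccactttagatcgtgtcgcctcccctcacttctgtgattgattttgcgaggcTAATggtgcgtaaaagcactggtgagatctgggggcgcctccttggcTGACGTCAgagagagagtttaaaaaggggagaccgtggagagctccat
Ins1: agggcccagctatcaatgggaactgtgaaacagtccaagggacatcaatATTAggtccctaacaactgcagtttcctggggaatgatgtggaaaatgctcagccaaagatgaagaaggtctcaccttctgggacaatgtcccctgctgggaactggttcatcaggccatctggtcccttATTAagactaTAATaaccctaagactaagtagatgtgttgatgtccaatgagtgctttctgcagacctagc
The Sst window held 1 TAAT and 1 TGACGTCA, and the Ins1 window held 3 TAAT and 0 TGACGTCA. Among 32851 promoter windows of this length, 54.9% held TAAT and 1.55% held TGACGTCA.

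Insulin was the major and somatostatin the minor hormone RNA of these droplets. Insulin took 21.0% to 71.5% of a droplet's UMIs (median 52.1%) and Sst 1.01% to 14.8% (median 3.42%). These values chose the droplets and are a description. The median count of insulin UMIs was 4361 and 5584.5 in HC mice 1 and 2 and 6345, 5464 and 4885.5 in chow mice 1, 2 and 3, where insulin-only droplets had 3983 and 6485 in the HC mice and 5211.5, 5879 and 4998 in the chow mice. The median count of Sst UMIs was 284 and 430 in the HC mice and 423, 342.5 and 334 in the chow mice, where somatostatin-only droplets had 472 and 581 in the HC mice and 634, 495 and 516.5 in the chow mice. Sst counts were thus 0.602 to 0.740 times those of somatostatin-only droplets, lower in every mouse. The median Sst share of insulin-only droplets was 0 in each mouse, and the 95th percentile was 0.022% to 0.044%. The gate had already taken droplets of at least 1% Sst out of that class, so both values lie below it by definition. Of all insulin-rich droplets (at least 20% insulin, Gcg and Ppy under 2%), 1.47% to 9.73% by mouse had at least 1% Sst.

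The gate cut through a sparse but continuous tail. Of the insulin-rich droplets, 11015 had under 0.05% Sst, 164 had 0.05 to 0.2% and 50 had 0.2 to 0.5%. Another 43 had 0.5 to 0.8%, 38 had 0.8 to 1% and 28 had 1 to 1.2%. An Rbp4 UMI was present in 84% of droplets at 0.2 to 0.5% Sst and 90.7% at 0.5 to 0.8%. All droplets of this tail under 1% Sst stay in the insulin-only class. The 38 just outside had a median of 12545 UMIs and 2225.5 detected genes, and the 28 just inside had 13037 UMIs and 2181 genes. The delta marker list took 0.310% of UMIs outside the hormone genes in the droplets just outside and 0.315% in those just inside, against 0.00466% under 0.05% Sst. Among droplets inside the Sst gate, 10 lay at 15 to 20% insulin and 5 at 20 to 25%.

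Droplets with both hormones were unevenly spread over the mice. They were 235 of 4821 kept barcodes in HC mouse 1 (4.87%, exact 95% binomial interval 4.28 to 5.52) and 28 of 4413 in HC mouse 2 (0.634%, 0.422 to 0.916). They were 192 of 3656 in chow mouse 1 (5.25%, 4.55 to 6.02), 166 of 5122 in chow mouse 2 (3.24%, 2.77 to 3.76) and 70 of 4746 in chow mouse 3 (1.47%, 1.15 to 1.86). The intervals cover counting error only. The lowest and one of the highest shares both came from HC mice, and the diets overlapped.

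**Figure D1:**
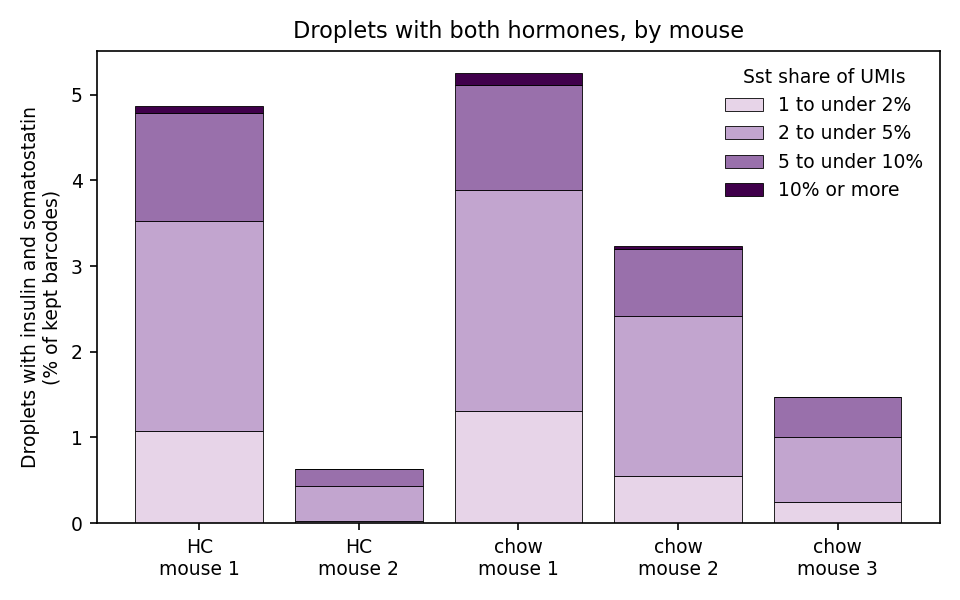
Droplets with insulin and somatostatin as a percent of kept barcodes in each mouse, with the bar divided by the Sst share of the droplet's UMIs; each bar is 1 mouse. The bars run from 0.634% in HC mouse 2 to 5.25% in chow mouse 1, and the 2 to under 5% class is the widest part of each.

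The mean share was 2.75% ± 3.00 over the HC mice (SD, n = 2), against 3.32% ± 1.89 over the chow mice (SD, n = 3), a difference of -0.568 points (HC minus chow; exact permutation test over 10 splits, two-sided p = 0.7, smallest possible 0.1). The difference was -0.377 points within FUN libraries and -1.72 points within SKY libraries. Both FUN libraries lay above the 3 SKY libraries, with a mean of 5.06% in FUN against 1.78% in SKY (0.634 to 3.24%). The direction turned without HC mouse 2 (1.55 points), without chow mouse 1 (0.397 points) and with HC mouse 2 grouped by its title (2.22 points).

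The other hormone pairs did not follow the same order of mice. With glucagon counted from 2% Gcg, droplets with insulin and glucagon were 1.78% and 0.906% of kept barcodes in HC mice 1 and 2 and 0.985%, 1.66% and 1.35% in chow mice 1, 2 and 3. Droplets with somatostatin and glucagon were 3.82% and 1.22% in the HC mice and 1.70%, 1.95% and 0.906% in the chow mice. For each 1000000 pairs that could be formed from 1 droplet of either hormone alone, the insulin and somatostatin pair was seen 251 and 30.0 times in HC mice and 280, 145 and 54.2 times in chow mice. For insulin and glucagon this was 30.4 and 20.4 times in HC mice and 25.5, 35.7 and 30.9 times in chow mice, a much narrower range. For somatostatin and glucagon it was 330 and 103 times in HC mice and 222, 277 and 112 times in chow mice. On this scale the pairs of somatostatin with insulin and with glucagon were lowest in HC mouse 2 and next lowest in chow mouse 3, while by share of kept barcodes somatostatin and glucagon was lowest in chow mouse 3.

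**Figure D2:**
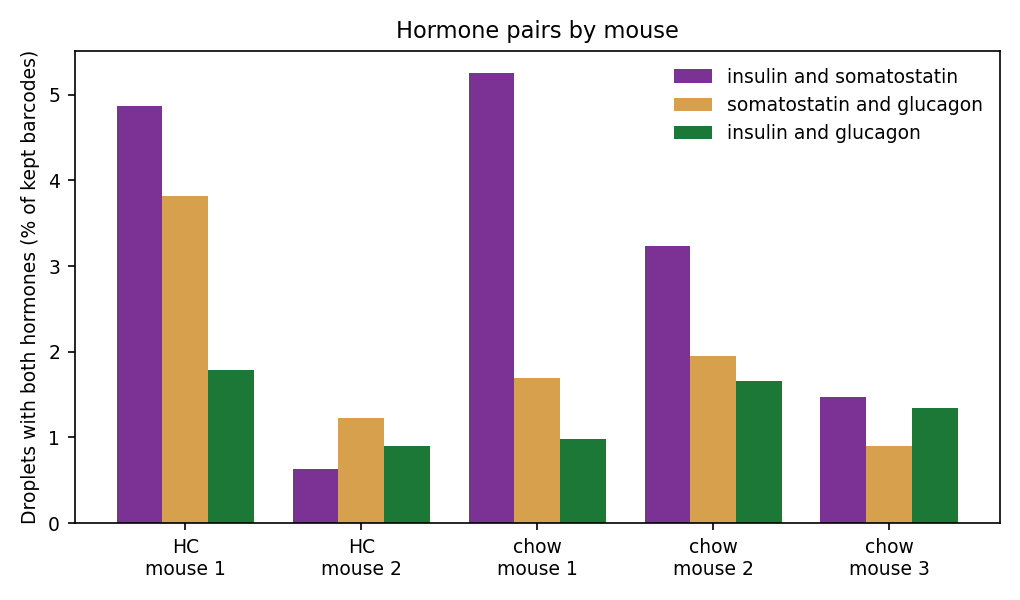
Droplets holding 2 hormones as a percent of kept barcodes in each mouse, for 3 pairs (insulin at 20% of UMIs or more, Sst at 1% or more and Gcg at 2% or more, with the remaining hormones below their gates). The insulin and somatostatin pair runs from 0.634% to 5.25%, and the insulin and glucagon pair from 0.906% to 1.78%.

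Droplets with both hormones held more RNA than droplets with either alone. Their median UMI count was 8899 and 10531 in HC mice 1 and 2 and 12904, 10016.5 and 8601.5 in chow mice 1, 2 and 3. Insulin-only droplets had 6414 and 9630 in the HC mice and 8336.5, 8447 and 7277 in the chow mice, and somatostatin-only droplets 2159 and 2549 in the HC mice and 2894, 2382 and 2213 in the chow mice. Within each mouse the droplets with both hormones were the deepest of the 3 classes. The ratio averaged 1.27 over insulin-only droplets (1.09 to 1.55) and 4.16 over somatostatin-only droplets (3.89 to 4.46). Between 64.3% and 88.0% of them in a mouse lay above the insulin-only median.

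With the 5 hormone genes left out, the median was 4222 and 4374.5 UMIs in HC mice and 5770, 4173 and 3564.5 UMIs in chow mice. This was 1.61 times that of insulin-only droplets (1.42 to 1.78) and 2.36 times that of somatostatin-only droplets (2.16 to 2.61), higher in 5 of 5 mice for both. Set against the sum of the 2 one-hormone medians of the same mouse, it was 0.958 times that sum (0.867 to 1.06), above it in 2 of 5 mice (exact sign-flip test, two-sided p = 0.375). For all UMIs the ratio to the sum was 0.971 (0.865 to 1.15, exact p = 0.5625). The exact p was 0.063 for each class difference that pointed the same way in 5 of 5 mice, which is the smallest this design allows (0.0893 after Benjamini-Hochberg adjustment over 10 comparisons).

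Detected genes were higher in the same way, and nearly equal at equal depth. The median was 2017 and 2090 genes in HC mice and 2507.5, 1966.5 and 1786.5 genes in chow mice, 1.46 times that of insulin-only droplets (1.35 to 1.55) and 1.92 times that of somatostatin-only droplets (1.82 to 2.06). After each droplet was thinned to 1000 UMIs outside the hormone genes, the ratio was 1.02 (1.01 to 1.03) against insulin-only and 0.999 (0.987 to 1.01) against somatostatin-only droplets. Thinning left out 0% to 3.01% of the droplets with both hormones per mouse, 0.16% to 1.71% of insulin-only and 1.47% to 4.43% of somatostatin-only droplets. The median mitochondrial share was 3.38% and 2.84% in HC mice and 2.60%, 1.81% and 2.22% in chow mice, within 1 percentage point of the insulin-only medians.

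**Figure D3:**
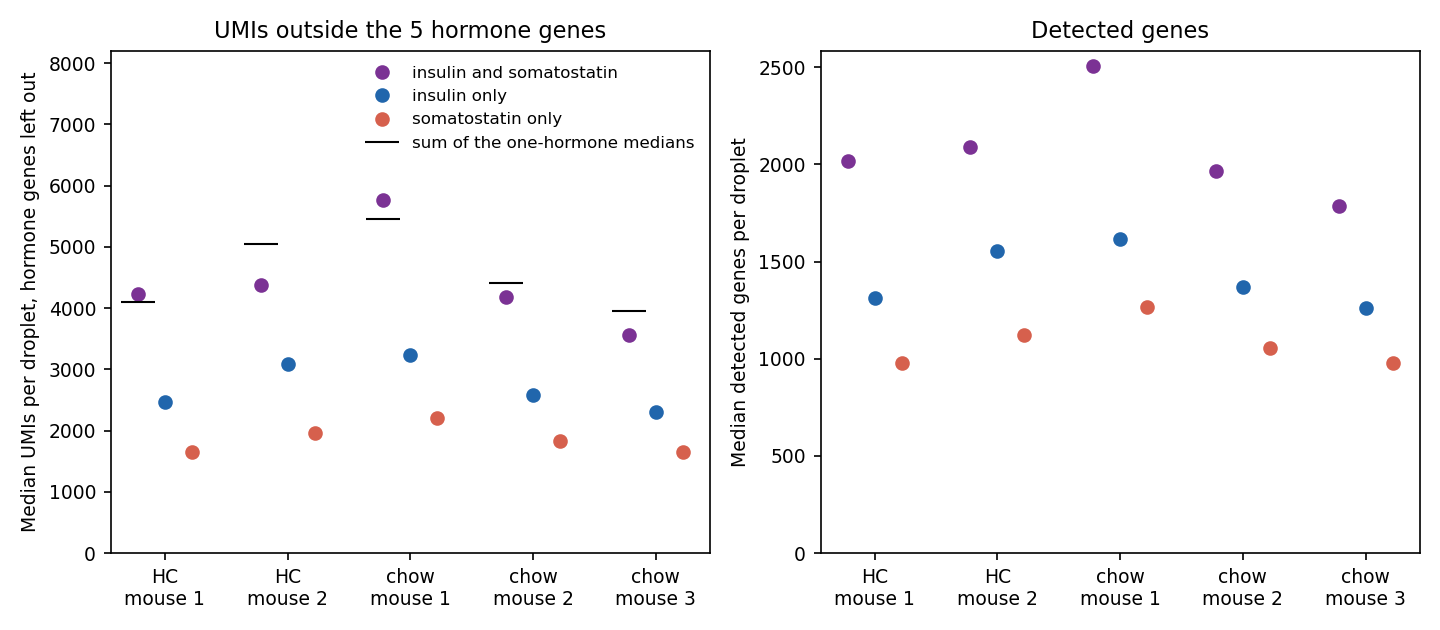
Left, median UMIs per droplet outside Ins1, Ins2, Sst, Gcg and Ppy in each mouse for droplets with both hormones and for either one-hormone class, with a black dash at the sum of the 2 one-hormone medians; right, median detected genes. Droplets with both hormones lie above either class in 5 of 5 mice and at 0.867 to 1.06 times the sum on the left.

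Markers of both cell types were found in the same droplets. The delta list (Rbp4, Hhex, Ghsr, Casr, Cckbr, Ffar4, Spock3, Cbln4, Ptprz1 and Bche) took 0.654% and 0.670% of UMIs outside the hormone genes in HC mice 1 and 2 and 0.693%, 0.497% and 0.517% in chow mice 1, 2 and 3. The same list took 0.00461% to 0.0127% in insulin-only and 1.27% to 1.79% in somatostatin-only droplets, and none of these ranges overlapped. The beta list of 14 measured genes took 7.75% and 8.19% in HC mice and 8.85%, 7.75% and 7.26% in chow mice, against 9.31% to 10.4% in insulin-only and 3.23% to 4.26% in somatostatin-only droplets. At least 3 UMIs of the delta list together with at least 3 of the beta list without Iapp and Pdx1, which somatostatin-only droplets also hold, were present in 677 of 691 droplets (98.0%). This was so in 167 of 11310 insulin-only (1.48%) and 39 of 2112 somatostatin-only droplets (1.85%). Cckbr and Bche of the delta list had 0 UMIs in the droplets with both hormones. Rbp4 supplied most UMIs of the delta list and Iapp most of the beta list. The list shares therefore mainly follow these genes, and the other genes are described singly below.

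Rbp4, which encodes the retinol carrier RBP4 and is a marker of mouse delta cells, had 27.9 and 30.1 UMIs per droplet in HC mice and 40.9, 20.4 and 18.5 in chow mice. In insulin-only droplets it had 0.321 and 0.144 in HC mice and 0.362, 0.230 and 0.0845 in chow mice, and in somatostatin-only droplets 28.7 and 34.3 in HC mice and 38.6, 23.1 and 23.3 in chow mice. The amount per droplet was thus near that of somatostatin-only droplets in every mouse, and far above that of insulin-only droplets. The whole delta list averaged 29.6 and 32.0 UMIs in HC mice and 43.2, 21.7 and 19.6 in chow mice. Rbp4 thus made up most of that list. At least 1 Rbp4 UMI was found in 99.8% of droplets with both hormones on average, against 9.25% of insulin-only droplets, which serve as the background here. The median depths above show that the insulin-only droplets were the shallower. Hhex, a homeodomain factor required for delta cells in mice, averaged 0.737 ± 0.223 UMIs per droplet, against 0.00937 ± 0.00402 in insulin-only and 1.02 ± 0.182 in somatostatin-only droplets (SD, n = 5 mice each). Ghsr, the ghrelin receptor of delta cells, averaged 0.0543 ± 0.0299, against 0.000291 ± 0.00042 in insulin-only and 0.0400 ± 0.0150 in somatostatin-only droplets.

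Ucn3, the peptide that mature mouse beta cells release onto delta cells, had 1.51 and 1.71 UMIs per droplet in HC mice and 2.08, 1.57 and 1.04 in chow mice. Insulin-only droplets had 1.67 and 1.72 in HC mice and 2.34, 1.78 and 1.44 in chow mice, and the somatostatin-only droplets had 3 and 0 Ucn3 UMIs in all in HC mice and 1, 2 and 1 in chow mice. Droplets with both hormones had as much Ucn3 as insulin-only droplets in HC mouse 2 and less in the other 4 mice. Mafa, a factor of mature beta cells, averaged 3.46 ± 1.37 UMIs per droplet, against 3.63 ± 1.32 in insulin-only and 0.0318 ± 0.0316 in somatostatin-only droplets (SD, n = 5 mice each). Slc2a2, the glucose transporter GLUT2, averaged 2.39 ± 0.478, against 2.60 ± 0.373 and 0.0148 ± 0.0110. Iapp, which encodes amylin and is made by both cell types, averaged 355 ± 96.9, against 284 ± 55.4 in insulin-only and 70.6 ± 18.6 in somatostatin-only droplets. The whole beta list averaged 382 UMIs per droplet, against 311 in insulin-only and 71.3 in somatostatin-only droplets. Iapp thus made up most of that list in each class.

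**Figure D4:**
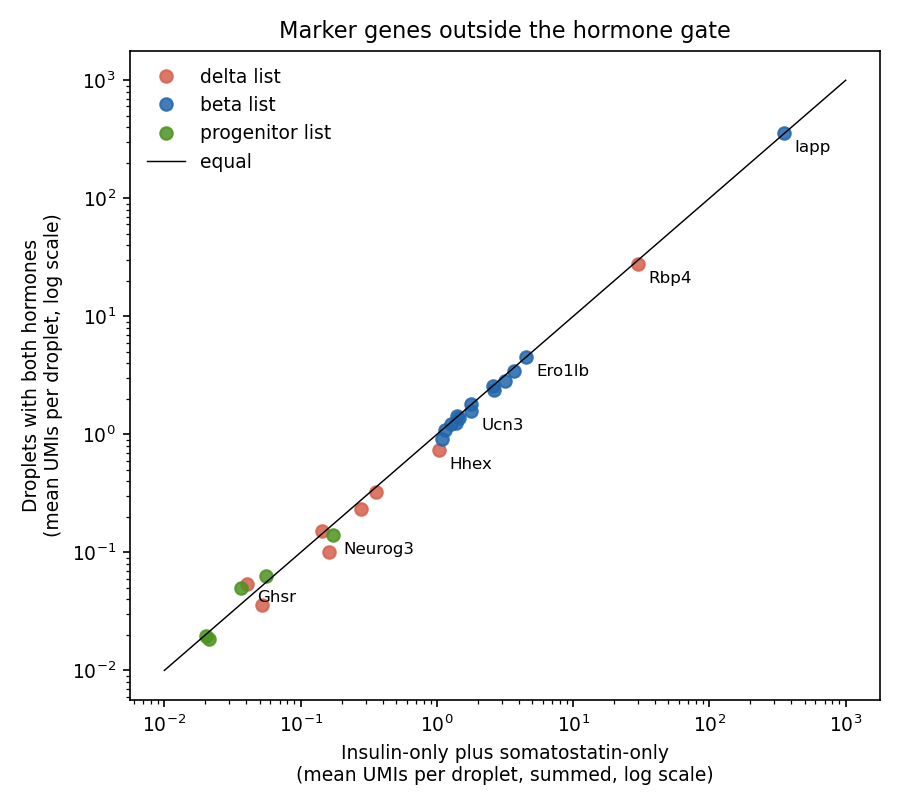
Mean UMIs per droplet in droplets with both hormones (vertical, log scale) against the insulin-only and somatostatin-only means added together (horizontal, log scale), averaged over 5 mice, for measured genes of the delta, beta and progenitor lists above 0 on both axes. The line marks equal values; Rbp4 lies at 0.911 and Iapp at 0.993 times the sum.

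Per droplet, the delta list averaged 29.6 and 32.0 UMIs in HC mice and 43.2, 21.7 and 19.6 in chow mice, which was 0.780 to 1.04 times the insulin-only and somatostatin-only means added together. The beta list was 0.901 to 1.11 times that sum. Both ratios mainly follow Rbp4 and Iapp, which made up most of the delta and the beta list. Over 4994 genes other than the 5 hormone genes, each with at least 0.3 UMIs per droplet summed over the 3 classes, droplets with both hormones lay at a median log2 of -0.12 from the sum (5th to 95th percentile -0.41 to 0.11, means of 5 mice, with 0.01 UMIs per droplet added to each value), and 99.7% were within 2-fold of it. On the mean of the mice 0 genes lay more than 2-fold above the sum and 14 more than 2-fold below, among them the digestive enzyme genes Prss2, Ctrb1 and Try5, and 2 genes, Cd74 and Try5, lay below in each of the 5 mice. Ppy, a hormone gene that the gate capped, averaged 9.24 UMIs per droplet, against 0.612 in insulin-only and 2.90 in somatostatin-only droplets. The median Ppy share of droplets with both hormones was 0% to 0.0130% by mouse, so this mean does not describe the typical droplet. A cap in percent also admits more Ppy UMIs in deeper droplets. The genes share droplets, so the comparison with the sum is a description and was set after the data were seen. The spread was widest in HC mouse 2, which had 28 of these droplets and 91.6% of genes within 2-fold, and was 97.3% to 99.9% in the others.

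The delta list share stood 36.0% to 40.6% of the way from insulin-only to somatostatin-only droplets, and the beta list share 21.3% to 37.2% of the way. These positions mainly follow Rbp4 and Iapp, which made up most of the lists. By median UMIs outside the hormone genes, somatostatin-only droplets made up 38.7% to 41.7% of the sum of both classes. The beta list position lay below that share in 5 of 5 mice, and the delta list position in 4 of 5, all but chow mouse 1.

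Within the droplets with both hormones, the delta list share, mostly Rbp4, went with Sst. The beta list share, mostly Iapp, went the other way. Sst was 1 to under 2% in 141 droplets, 2 to under 5% in 362, 5 to under 10% in 177 and at least 10% in 11. From the lowest to the highest of these classes, the delta list took 0.357%, 0.589%, 0.896% and 1.23% of UMIs outside the hormone genes over all mice, and the beta list 9.15%, 8.15%, 7.25% and 6.19%. The delta list rose from 1 to under 2% to 2 to under 5%, and again to 5 to under 10%, in 5 of 5 mice. In HC mouse 2 the 1 to under 2% class held 1 droplet. This is by description only, since the Sst share was used to choose the droplets. Median total UMIs were 12364, 10316, 9143 and 9739, and at least 1 Rbp4 UMI was present in 99.3% to 100% of droplets of each class. Median insulin UMIs were 6877, 5464, 4083 and 2639 over all mice. In chow mouse 2 the median was 4349.5 at 5 to under 10% Sst and 4848.5 in its 2 droplets of at least 10%. In the other mice it fell at each step. Insulin counts helped choose the droplets and are part of the total that the Sst share is taken over. The fall is therefore a description only.

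**Figure D5:**
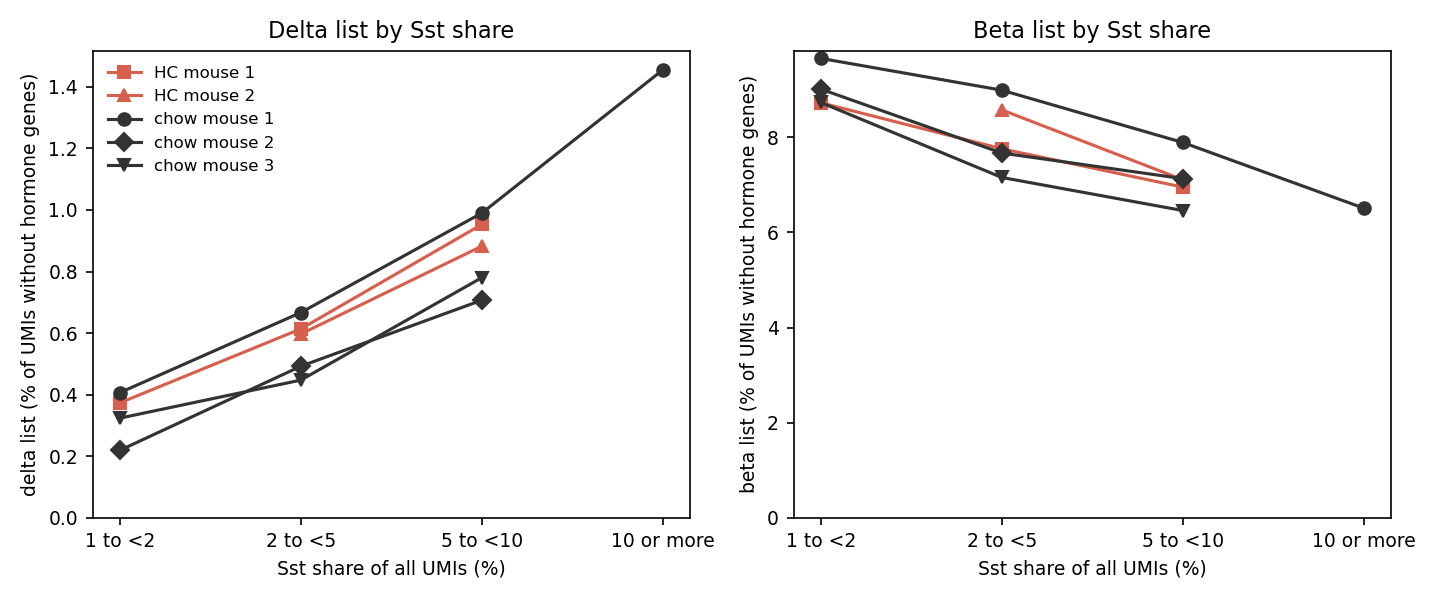
Share of the delta list (left) and of the beta list (right) among UMIs outside the hormone genes, by the Sst share of the droplet, with 1 line per mouse (HC in red, chow in dark grey) and classes of under 5 droplets not drawn. The delta list is higher in each next Sst class in every mouse drawn, and the beta list is lower. Rbp4 supplies most of the delta list and Iapp most of the beta list.

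Counts were then summed per mouse and class and fitted with edgeR's quasi-likelihood test over 9383 genes, with the mouse as a block and the 5 hormone genes left out. Each log2 value of this fit compares shares of the UMIs outside the hormone genes, not amounts per droplet. Because the gate itself set these classes apart, and genes of a cell type come with its hormone, nothing is read from the number of genes called. Against insulin-only droplets, 1020 genes were higher (10.9%) and 749 lower (7.98%) at a Benjamini-Hochberg adjusted p under 0.05. Against somatostatin-only droplets, 1405 were higher (15%) and 1356 lower (14.5%). Without HC mouse 1 the number lower than in insulin-only droplets was 470.

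Of the delta list, 7 of 8 tested genes were higher than in insulin-only droplets (median log2 5.93, all genes -0.01) and 7 of 8 were lower than in somatostatin-only droplets (median -1.36, all genes -0.01). Rbp4 differed by log2 6.31 ± 0.26 (SE, adjusted p = 1.28e-07, edgeR) from insulin-only and -1.38 ± 0.21 (adjusted p = 0.00100) from somatostatin-only droplets. Hhex differed by 5.72 ± 0.13 (adjusted p = 2.33e-68, edgeR) and -1.68 ± 0.08 (1.26e-36). Ffar4, a receptor for long-chain fatty acids, stood at 3.37 and -1.34, Spock3 at 5.76 and -1.60, Cbln4 at 6.64 and -1.34, Ptprz1 at 6.16 and -1.59, and Ghsr, with 3 UMIs in all insulin-only droplets, at -1.08 against somatostatin-only droplets. The Ghsr difference from somatostatin-only droplets did not pass without HC mouse 1 (adjusted p = 0.105), without chow mouse 1 (0.174) or at an Sst gate of 2% (0.0736). Casr, the calcium-sensing receptor, had 0.36 and -0.73 and passed in neither (adjusted p = 0.494 and 0.0973).

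Of the beta list, 13 of 14 genes were lower than in insulin-only droplets (median log2 -0.65) and 14 of 14 higher than in somatostatin-only droplets (median 5.52). Ucn3 stood at -0.82 ± 0.06 (adjusted p = 2.43e-23, edgeR) and 7.58 ± 0.19 (2.23e-68), the glucose-6-phosphatase gene G6pc2 at -0.62 and 6.16, and the beta cell factor Nkx6-1 at -0.62 and 5.92. Slc30a8, the granule zinc transporter ZnT8, stood at -0.78 and 5.26, and Glp1r, the GLP-1 receptor, at -0.71 and 3.02. Iapp at -0.32 and 1.09 and Pdx1 at -0.36 and 0.26 differed least, and both were also present in somatostatin-only droplets. The Pdx1 difference from somatostatin-only droplets did not pass without chow mouse 3 (adjusted p = 0.115) or by DESeq2 (0.0720). Npy had -0.56 against insulin-only droplets and did not pass (adjusted p = 0.0683). These differences from insulin-only droplets are in shares of UMIs outside the hormone genes, and amounts per droplet were closer. Per droplet, Nkx6-1 averaged 1.82 UMIs against 1.77 in insulin-only droplets, and G6pc2 2.58 against 2.57. Mafa and Slc2a2, described above, averaged less than in insulin-only droplets.

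Genes of endocrine progenitors stood near their somatostatin-only amounts per droplet. Neurog3, the factor that starts the endocrine programme, had 32 and 4 UMIs in all in the droplets with both hormones of HC mice 1 and 2 and 46, 21 and 4 UMIs in chow mice 1, 2 and 3. A Neurog3 UMI was present in 12.7% of them on average, against 14.8% of somatostatin-only droplets and 0% to 0.459% of insulin-only droplets by mouse. Per droplet it averaged 0.140 ± 0.0652 UMIs, against 0.0021 ± 0.00173 in insulin-only and 0.170 ± 0.0495 in somatostatin-only droplets (SD, n = 5 mice each), 0.802 times the 2 added together. It was higher than in insulin-only droplets by log2 5.37 ± 0.30 (adjusted p = 2.01e-30, edgeR) and lower than in somatostatin-only droplets by -1.49 ± 0.19 (5.31e-11). Of the progenitor list, 3 of 6 genes were tested, and 3 were higher than in insulin-only and 1 lower than in somatostatin-only droplets. Fev stood at 2.24 and -0.70 and Sox9 at 2.77 and -0.70, and neither passed against somatostatin-only droplets (adjusted p = 0.0651 and 0.140). Pax4 had 0 UMIs, Gast 10 and Aldh1a3 13 in all 691 droplets.

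The genes with the largest differences from insulin-only droplets repeated those of delta cells. They included Pyy, the peptide YY gene, with 51.8 ± 10.6 UMIs per droplet against 0.870 ± 0.599 in insulin-only and 55.5 ± 15 in somatostatin-only droplets (log2 5.41 and -1.33, adjusted p = 2.14e-06 and 0.00607, edgeR). Arg1, which encodes arginase, averaged 0.907 ± 0.186 UMIs, against 0.00635 ± 0.00364 and 1.11 ± 0.224 (log2 6.55 and -1.51). Cd24a averaged 1.15 ± 0.139, against 0.0147 ± 0.00406 and 1.24 ± 0.172, Ly6h 1.58 ± 0.308, against 0.00937 ± 0.00644 and 1.87 ± 0.344, and Gap43, a growth cone protein of neurons, 0.647 ± 0.168, against 0.0053 ± 0.00487 and 0.892 ± 0.23. As CPM outside the hormone genes, these 5 genes were higher than in insulin-only and lower than in somatostatin-only droplets in 5 of 5 mice. In UMIs per droplet, Pyy stood above somatostatin-only droplets in chow mouse 1 (46.4 against 44.3) and chow mouse 3 (61.2 against 59.5), Cd24a in chow mouse 3 (1.23 against 1.09) and Arg1 in HC mouse 1 (0.979 against 0.978). Among the genes furthest below insulin-only droplets were Car15, a carbonic anhydrase, at log2 -1.09 and Slc7a2, a cationic amino acid transporter, at -0.92. Among those furthest above somatostatin-only droplets were Ffar1, a fatty acid receptor of beta cells, with 401 UMIs in the 691 droplets against 2 in 2112 somatostatin-only droplets, and Ociad2 with 573 against 4.

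Genes that both cell types use differed in both directions from either class. Of 15 shared endocrine genes, 3 were higher and 6 lower than in insulin-only droplets, and 8 higher and 4 lower than in somatostatin-only droplets. Over all 9383 genes, 10.9% were higher and 7.98% lower than in insulin-only droplets. Against somatostatin-only droplets these shares were 15% and 14.5%. The list counts here and below stand beside these shares, and nothing is read from the counts. The granin genes moved in opposite directions, with Chga at log2 -0.46 and 2.38 and Chgb at 0.83 and -0.88 against insulin-only and somatostatin-only droplets. The islet factor Isl1 stood at 1.04 and -0.83. Pcsk1, a prohormone convertase, stood at -0.38 and 1.75, while Pcsk2 had 0.11 against insulin-only droplets and did not pass (adjusted p = 0.0700). Of 8 tested genes that carry signals between beta and delta cells, 1 was higher and 5 lower than in insulin-only droplets, and 5 higher and 2 lower than in somatostatin-only droplets. Crhr2, the receptor for UCN3 on delta cells, stood at 4.81 and -1.65. It had 20 UMIs in all droplets with both hormones and 6 in all insulin-only droplets, so the first value is near the floor. Its difference from somatostatin-only droplets did not pass at an Sst gate of 5% (adjusted p = 0.228, edgeR). Gjd2, the connexin 36 gene that couples beta cells, stood at -0.65 and 2.04. Of 10 genes of glucose sensing and exocytosis, 2 were higher and 3 lower than in insulin-only droplets, and 3 higher and 2 lower than in somatostatin-only droplets, with the sulfonylurea receptor gene Abcc8 at 0.27 and -0.30. The somatostatin receptor gene Sstr3, the only one of 5 tested, had -0.17 against insulin-only droplets (adjusted p = 0.236) and was 0.45 higher than in somatostatin-only droplets. At an Sst gate of 5% the latter difference was 0.026 and did not pass (adjusted p = 0.971, edgeR).

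Stress genes split by the class they were set against. Of 17 immediate-early and heat shock genes, which dissociation can induce, 6 were higher and 0 lower than in insulin-only droplets, and 4 higher and 5 lower than in somatostatin-only droplets. Egr1 stood at log2 0.38 and -0.56. Of 17 genes of the unfolded protein response, 1 was higher and 5 lower than in insulin-only droplets, and 11 higher and 0 lower than in somatostatin-only droplets. Atf4 stood at -0.36 and 0.87 and Ddit3, which encodes CHOP, at -0.40 and 0.96. The Ddit3 difference from insulin-only droplets did not pass without HC mouse 1 (adjusted p = 0.164).

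Few genes lay outside the range of the 2 one-hormone classes. With adjusted p under 0.05 against each class, 1272 genes lay between them (13.6%), 3 above both (0.032%) and 7 below both (0.0746%). The 3 above were Bckdhb, a subunit of branched-chain ketoacid dehydrogenase (log2 0.45 and 0.47), Slc39a8, a zinc transporter (0.80 and 0.81), and Nrep (0.77 and 0.91). Each of these 3 lost a call without chow mouse 1 (adjusted p = 0.0825 and 0.268 for Bckdhb, 0.0562 and 0.324 for Slc39a8, 0.135 and 0.167 for Nrep), and by DESeq2 none of the 3 passed in either contrast. Below both, Gm42418 stood at -0.38 and -0.75 and AY036118 at -0.74 and -1.31, both loci that overlap ribosomal RNA sequence, so their reads cannot be placed with certainty. Without the mouse as a block neither passed (adjusted p = 0.467 and 0.0685 for Gm42418, 0.358 and 0.108 for AY036118), and at an Sst gate of 5% AY036118 did not pass against insulin-only droplets (0.181). Sparc, a matrix protein gene, stood at -0.56 and -0.89 and did not pass against insulin-only droplets without HC mouse 2 (adjusted p = 0.0812), chow mouse 1 (0.0566) or chow mouse 2 (0.0966). Mtmr14, Ralb, Nectin1 and 2510039O18Rik were the others.

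The lists of other cell types differed in how far they stood from either class. The ductal list took 0.0703% to 0.0950% of UMIs outside the hormone genes, against 0.0514% to 0.0586% in insulin-only and 0.102% to 0.115% in somatostatin-only droplets, with none of its 8 genes at 0. Of 5 tested ductal genes 3 were higher than in insulin-only droplets, and 1 was higher and 3 lower than in somatostatin-only droplets, with Tspan8 at log2 3.95 and -1.38 and Ambp at 2.73 and -1.13. Ambp averaged 0.527 UMIs per droplet, against 0.0544 in insulin-only and 0.515 in somatostatin-only droplets. Krt7 stood at -0.18 and 0.63, and the first did not pass (adjusted p = 0.0541, edgeR). Krt19 and Cftr had 3 UMIs each and Muc1 had 4 in all 691 droplets, too few to be tested. The alpha list took 0.123% to 0.140%, against 0.162% to 0.190% and 0.0267% to 0.0331%. Of 4 tested alpha genes 2 were higher and 2 lower than in insulin-only droplets, and 1 was higher and 1 lower than in somatostatin-only droplets, with the transthyretin gene Ttr at -0.42 and 3.63 and Gc at 0.93 and -1.11. The Schwann list took 0.000748% to 0.00329%, against 0.00172% to 0.00241% and 0.00275% to 0.00644%, with Foxd3 at 0, and 0 of 2 tested genes passed in either contrast.

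The macrophage list took 0.00896% to 0.0214% of UMIs outside the hormone genes, against 0.0117% to 0.0210% in insulin-only and 0.0279% to 0.0836% in somatostatin-only droplets, with Ptprc, Adgre1 and C1qc, 3 of its 10 genes, at 0. C1qa, a macrophage gene, was the 1 of 4 tested genes that passed, at log2 1.58 and -1.32, and had a UMI in 44.0% of droplets with both hormones, against 9.04% of insulin-only and 42.0% of somatostatin-only droplets. C1qb had 5 UMIs in all. The endothelial list (8 genes, none at 0) took 0% to 0.0120%, against 0.00260% to 0.00631% and 0.00309% to 0.00772%, and the stromal list 0% to 0.00198%, against 0.00178% to 0.00675% and 0.000468% to 0.00697%, with Col1a1, Col6a1, Cspg4 and Pdgfrb of its 8 genes at 0. Of the lymphocyte list 7 of 8 genes were at 0. The remaining one, Cd79a, a B cell receptor subunit gene, had 214 UMIs and a UMI in 19.7% of droplets with both hormones, against 16.5% of insulin-only and 0.223% of somatostatin-only droplets, at log2 -0.30 (adjusted p = 0.0619, edgeR) and 5.22 (5.31e-26). The acinar list took 0.0217% to 0.0518%, against 0.0291% to 0.115% and 0.0635% to 0.164%, and of 10 tested genes 1 passed, the elastase gene Cela1, higher than in insulin-only droplets. Of the proliferation list 2 of 9 genes could be tested, and neither passed, with Cenpf at 0.88 and 0.72 (adjusted p = 0.394 and 0.554).

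Droplets of other types were set against the same gates. Among 1872 droplets with at least 10 UMIs of the vascular, stromal or macrophage lists, 65 had at least 1% Sst (3.47%, exact 95% binomial interval 2.69 to 4.40), 153 had at least 20% insulin (8.17%) and 6 had both, with a median depth of 1710 UMIs and a median Sst share of 0. Among 5618 droplets with at least 10% Gcg, 464 had at least 1% Sst (8.26%, 7.55 to 9.01). Those with insulin and Ppy below their gates also count in the somatostatin and glucagon pair above. The 8.26% is therefore not a background without such pairs. Among insulin-rich droplets, 9.73% and 1.47% had at least 1% Sst in HC mice 1 and 2 and 9.33%, 5.69% and 2.58% in chow mice 1, 2 and 3. Among glucagon droplets it was 11.8% and 4.51% in HC mice and 7.96%, 10.3% and 4.90% in chow mice. The insulin-rich droplets lay below the glucagon droplets in 4 of 5 mice, with chow mouse 1 the exception. The 2 sets were gated differently. Insulin-rich droplets had Gcg and Ppy under 2%, while glucagon droplets had no cap on insulin or Ppy. Glucagon droplets had a median depth of 4087.5 UMIs, less than insulin-rich droplets, so the 1% gate took fewer Sst UMIs in them.

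Scrublet, which scores a droplet by its likeness to summed pairs of droplets from the same library, called 14 of 22758 barcodes (0.0615%), 1 of them among the droplets with both hormones, a rate too low for the caller to have worked. By rank, 304 of the 691 (44.0%) lay among the highest 6% of scores of their mouse, against 2.39% of insulin-only and 3.12% of somatostatin-only droplets. The scores used all genes, with Ins1, Ins2 and Sst among them. The ranks are therefore not independent of the gate and are a description only. The share of droplets with both hormones in the highest 6% was 22.6% and 92.9% in HC mice 1 and 2. It was 43.8%, 48.8% and 85.7% in chow mice 1, 2 and 3, lowest in a mouse with many of these droplets and highest in those with few.

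Between diets, 0 of 8713 genes passed in either direction (0% higher in HC, 0% lower) when the 5 sums of droplets with both hormones were fitted with edgeR, and 499 had a p under 0.05 before adjustment. DESeq2 passed 0, and 48 were under 0.05 before adjustment. The sum of HC mouse 2 rested on 28 droplets and 310777 UMIs, against 666765 to 2644248 in the other mice. Of the genes with the smallest p, mt-Nd2, a mitochondrial complex I subunit, had 1498 and 1194 CPM in HC mice 1 and 2 and 1030, 727 and 844 in chow mice 1, 2 and 3 (log2 0.52 ± 0.13, adjusted p = 0.407, edgeR). Ier2, an immediate-early gene, had 76.5 and 67.6 in HC mice and 141, 98.1 and 81.0 in chow mice (-0.71 ± 0.18, adjusted p = 0.407). Msln at 1.28, Hbp1 at 0.95, Srsf3 at -0.67 and Rassf1 at -1.38 had the same adjusted p. In these 6 genes both HC mice lay beyond the 3 chow mice, and they were picked for their small p. Ins1 and Ins2 had -0.21 and -0.22 (adjusted p = 0.917 and 0.910), and of the beta list 0 of 14, of the delta list 0 of 6 and of the immediate-early and heat shock list 0 of 17 tested genes passed (medians -0.11, 0.29 and -0.48, all genes 0.00). Prefix, age and diet could not all be fitted together in 5 mice. With prefix as a term 10 genes were higher and 11 lower, and with age as a term 8 were higher and 13 lower.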

How the data were processed

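Droplet libraries of islet cells from 5 mice (2 HC, 3 chow by the diet label) were deposited as raw UMI counts per gene and barcode; the submitters' processing notes name Cell Ranger (4.0.0) and mm10 for the authors' step. The cell calling settings are not given in the sources used here. The lowest barcode total was 500 or 501 UMIs.

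Barcodes were filtered and gated as the results state, and percents of lists are over UMIs outside Ins1, Ins2, Sst, Gcg and Ppy. Counts were summed per mouse and class and fitted by edgeR 4.0.16 under R 4.3.3 (TMM scaling, filterByExpr, two-sided quasi-likelihood test with robust fit, p adjusted by Benjamini-Hochberg). The mouse is the replicate and, between classes of the same mouse, the block; replicate numbers do not pair mice across diets. DESeq2 1.42.0 was an alternative, and Scrublet ran in scanpy 1.11.5 (expected rate 6%). Doublets were not removed. Medians of depth were compared with exact sign-flip tests over 5 mice and shares with exact permutation tests. The fits were tested on simulated data. Promoters are RefSeq's (GRCm38.p6), 2 of 2 genes matched, and gene positions GENCODE M21's.

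The droplets, lists and tests were chosen with earlier results of these data known. Genes were named by rule: all measured genes of the beta, delta and progenitor lists, the smallest p of other lists, the 10 largest changes per direction and contrast whose mean log2 CPM reached 5 and the same direction in 5 of 5 mice, up to 10 genes outside both classes and the 5 smallest p per direction for diet. Some are not described, and Slc39a8, Nrep, Mtmr14, Ralb and Nectin1 were named after their values were seen.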

Additional observations from a re-analysis of the deposited data

How the results depend on the processing

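The number of genes called moved by over 1.5 times in a few settings. Against insulin-only droplets, 423 genes were lower without the mouse as a replicate block, 425 by DESeq2 and 1276 with no filter, in place of 749. Without the block, calls of named genes were lost, among them those against insulin-only droplets for Mafa (adjusted p = 0.0808), Pdx1 (0.0824), Abcc8 (0.0561), Egr1 (0.0950) and Sparc (0.316), and those against somatostatin-only droplets for Sstr3 (0.0654), Pdx1 (0.118) and Sparc (0.121). Against somatostatin-only droplets, 567 were higher and 503 lower at an Sst gate of 5%, in place of 1405 and 1356. Leaving out 1 mouse gave 795 to 1006 higher and 470 to 686 lower against insulin-only, and 1140 to 1289 higher and 1042 to 1229 lower against somatostatin-only droplets. For diet, the counts higher and lower in HC were 10 and 11 with prefix as a term, 8 and 13 with age as a term, 1 and 14 with HC mouse 2 grouped by its title, 0 and 3 with no filter and 1 and 0 at an Sst gate of 2%, in place of 0 and 0. Leaving out 1 mouse gave 0 to 7 higher and 0 to 23 lower. The diet fit at an Sst gate of 5% was not run, because HC mouse 2 then had 9 droplets. The difference in share turned to 2.22 points with HC mouse 2 grouped by its title, and ran from -2.69 to 1.55 points with 1 mouse left out. The log2 ratio of thinned detected genes to somatostatin-only droplets turned to 0.0044 and 0.0011 at Sst gates of 2% and 5% and to 0.0033 with the stricter barcode filter, and ran from -0.0065 to 0.0033 with 1 mouse left out. The cause of these moves was not tested. No paired analysis was possible between diets because the replicate numbers were given in accession order. Of 1726 values of single genes under the alternatives, 82 lost the call, 35 gained it and 0 turned. HC mouse 2, with 28 droplets, limits the precision of the diet comparison, and 5 mice cannot take the exact test of depth below p = 0.063.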
